A study of Mus musculus with 6 samples.

Results

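Interstitial collagens and the matrix genes of fibroblasts were followed in mammary basal cells of mice that carry an inducible, active form of Notch1. The set holds 37 genes of the 51826 symbols counted, chosen by name for their roles. It comprises 6 fibrillar collagens, 7 other collagens, 6 small leucine-rich proteoglycans, 6 matrix glycoproteins and related molecules, 4 collagen processing and cross-linking genes, 6 metalloproteinases and inhibitors, and 2 fibroblast surface genes. RNA-seq libraries were made from total RNA of GFP-positive (GFPpos) and GFP-negative (GFPneg) mammary basal cells of C57B6/N mice with the genotype SMAcreERT2/N1ICD. All mice of both groups carried this genotype and were given 1 dose of tamoxifen on day 21 after birth. Mammary cells were taken 72 hours after it, on day 24. Cells of 2 to 3 mice were pooled for each of 3 replicates and split by GFP, which gave 3 libraries per group, and the replicate number names the pool. The Cre recombinase of this line is driven by the smooth muscle actin promoter, which is known to be active in the contractile basal cells of the mammary gland and also in vascular smooth muscle and pericytes. No GFP-labelled cells without the allele are among the 6 libraries, so that an effect of Notch1 activation and a difference between cells that did and did not become GFP-positive cannot be told apart.

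In the mammary gland most interstitial collagen is made by stromal fibroblasts, while basal (myoepithelial) cells lie between the luminal cells and the stroma and contribute to the basement membrane. Fibrillar collagens are secreted as procollagens, trimmed by proteinases, assembled together with small proteoglycans and associated collagens, and cross-linked by lysyl oxidases. Metalloproteinases cleave the finished matrix, and their tissue inhibitors restrain them.

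Library depth was uneven. GFPneg replicate 1 held 611465 gene counts, of which 1213 fell in the 37 genes. The other 5 libraries held 9912610 to 16043492 gene counts, with 39626 to 128859 in the 37 genes. In GFPneg replicate 1, 69.2% of gene counts lay in 5 abundant noncoding features, against 22.7% to 34.7% in the others. Its correlation with the other libraries (Pearson's r over genes, a description only) was 0.616 to 0.651, against 0.803 to 0.928 among the rest. There 1 count was worth 3.28 CPM (counts scaled to the effective library size), so that a count of 0 allowed up to 9.84 CPM, and 13 of the 37 genes had 0 counts in it. Results are therefore given for all 6 libraries and without that one.

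Several genes that define interstitial fibroblasts were low or absent in these libraries, while other genes known from fibroblasts were abundant. Per kilobase of exon, the highest mean levels over the 6 libraries were those of Col16a1 (109 CPM per kb), Postn (71.4), Col14a1 (69.0), Col6a1 (64.6), Timp3 (52.0), Timp2 (50.2) and Mmp14 (49.3). On the same scale Col1a1 stood at 9.71 CPM per kb, Col3a1 at 4.47, Dcn at 2.10, Col1a2 at 1.85 and Pdgfra at 1.25. The basal keratin gene Krt14 stood at 806 and Acta2, which encodes smooth muscle actin, at 763. The Col1a1 mean includes 256 CPM from 78 counts in GFPneg replicate 1, and its GFPpos mean was 3.04 CPM per kb. Exon length was taken over all annotated exons of a gene, not over a single transcript. Lum had 0 counts in all 6 libraries, which in each library other than GFPneg replicate 1 allowed at most 0.273 CPM (counting error only). Dpt had 6 counts in GFPpos replicate 3, 1 in GFPneg replicate 2 and 0 elsewhere, and Mmp3 had 5 counts, all in GFPneg replicate 2. Of 28 other genes known from fibroblasts, Mfap4, Mfap5 and Tcf21 had 0 counts in each library, and Efemp1 and Omd had counts in GFPneg replicate 2 alone. Others of that list, named here after their values were seen, were at levels like those of the leading genes of the set: Prelp at 108 CPM per kb, Gsn at 89.6, Fbln2 at 52.6 and Col15a1 at 52.2. The words "matrix genes" are used for the set below.

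**Figure D1:**
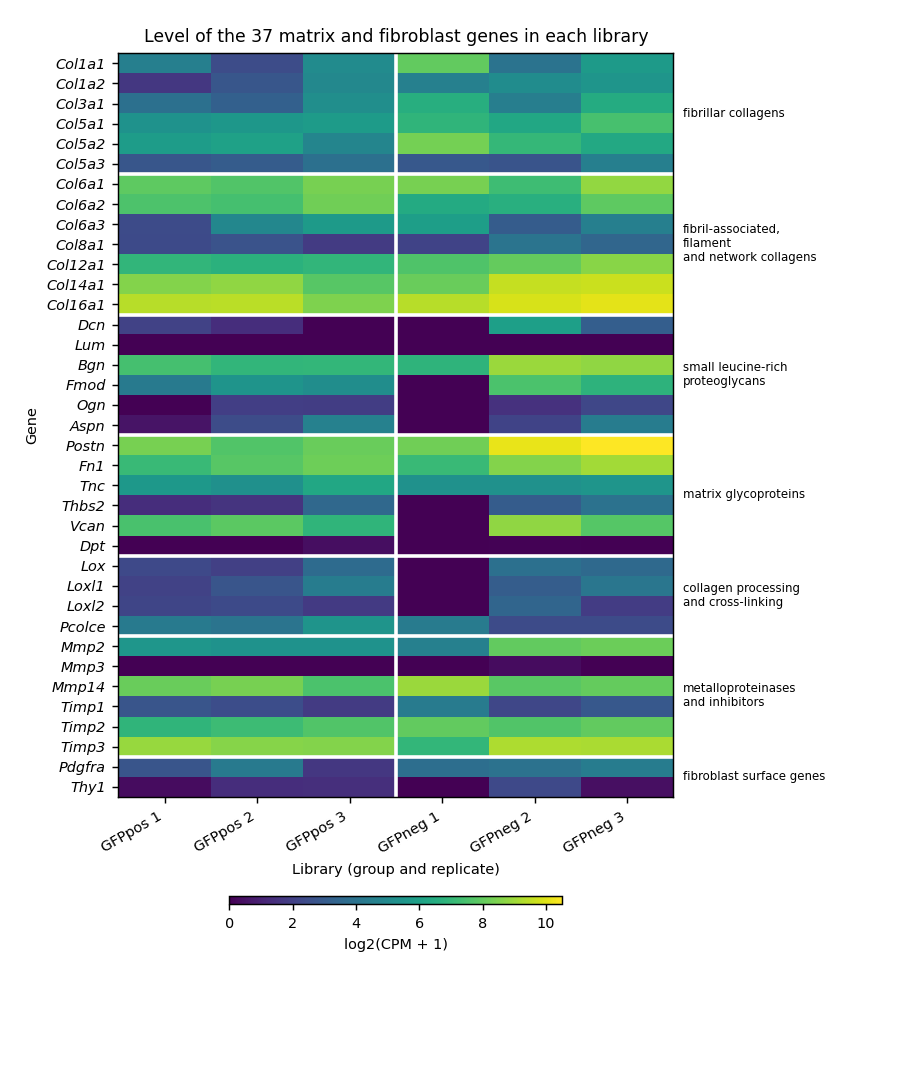
Heat map of log2(CPM + 1) for the 37 genes (rows, grouped by role) in the 6 libraries (columns, GFPpos on the left and GFPneg on the right). Postn is brightest in GFPneg replicates 2 and 3 (1152 and 1469 CPM), Lum is dark throughout, and GFPneg replicate 1 has 13 genes at 0.

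The summed level of the 37 genes was 3590, 3585 and 3439 CPM in GFPpos replicates 1, 2 and 3, and 3977, 6615 and 7778 CPM in GFPneg replicates 1, 2 and 3. The GFPpos libraries lay close together, and on this scale the GFPneg libraries were all above them, replicate 1 by the smallest margin. The place of GFPneg replicate 1 depended on its scaling factor (TMM, 0.501). The set held 0.198% of all gene counts there, below every GFPpos library (0.376%, 0.409% and 0.419% in replicates 1, 2 and 3). In GFPneg replicates 2 and 3 the set held 0.803% and 0.861%. In bulk samples, fewer cells of a type and less RNA per cell cannot be told apart. The 8 matrix genes with the highest mean CPM (Col16a1, Postn, Col14a1, Timp3, Mmp14, Fn1, Col6a1 and Bgn) held 61.6% to 74.6% of the counts of the set in each library. The summed level of 8 basal epithelial markers moved in the same direction on the same CPM scale. It was 7462, 6315 and 6217 CPM in GFPpos replicates 1, 2 and 3, and 8190, 12935 and 11041 CPM in GFPneg replicates 1, 2 and 3. Relative to it, the matrix sum stood at 48.1%, 56.8% and 55.3% in GFPpos and 48.6%, 51.1% and 70.4% in GFPneg libraries, and the groups overlapped.

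With all 6 libraries, 0 of the 34 matrix genes tested were lower and 0 were higher in GFPpos cells (edgeR, quasi-likelihood test, p adjusted by Benjamini-Hochberg over 13873 genes, threshold 0.05). Of all genes tested, 0.00721% were lower and 0.0577% higher by that rule. At an unadjusted p below 0.05, 9 of the 34 were lower and 0 higher, against 2.88% lower and 2.38% higher of all genes tested. These 9 were Postn, Mmp2, Col5a2, Col12a1, Col5a1, Bgn, Dcn, Col1a1 and Col3a1. Fold changes were negative for 28 of the 34, against 42.5% of all genes tested, and the median log2 fold change was -0.68, against 0.15 for all genes. The shift was not particular to the matrix genes. The 8 basal epithelial markers had a median of -0.74 in this fit, with 7 negative and 4 lower at an unadjusted p below 0.05. Lum, Dpt and Mmp3 had too few counts to be tested. DESeq2 called 0 of the 34, while of all 13873 genes it called 46 lower and 46 higher. With limma-voom 4 were called lower (Postn, Mmp2, Bgn and Col12a1), against 24 of the 13873 genes, and 0 higher, against 54. The replicate number marks a shared pool of mice, and with it as a block 0 were called in either direction (0.13% lower and 0.31% higher of all genes), with 10 lower at an unadjusted p below 0.05, against 1.46% of all genes.

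Without GFPneg replicate 1, Mmp2, Postn, Bgn, Fmod and Col12a1 fell in GFPpos cells. These 5 of 34 compare with 0.19% of all genes called lower in that fit, and 0 matrix genes were called higher, against 0.412% of all genes. At an unadjusted p below 0.05 there were 13 lower and 1 higher, against 4.57% and 4.56% of all genes. The summed level of these 5 genes was 679, 508 and 599 CPM in GFPpos replicates 1, 2 and 3. In GFPneg replicates 1, 2 and 3 it was 636, 2335 and 2698 CPM, so that on this scale GFPneg replicate 1 lay among the GFPpos libraries. That place depends on its TMM factor (0.501). The 5 genes were picked by this same fit, so that their gap to GFPneg replicates 2 and 3 is no further evidence. The other 32 matrix genes together stood at 2840 to 3078 CPM in GFPpos libraries, and at 3341, 4279 and 5080 CPM in GFPneg replicates 1, 2 and 3. The comparison without this library rests on 3 against 2 libraries.

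Postn encodes periostin, a secreted protein that binds collagen and integrins (chromosome 3, 54361109 to 54391037, mm10). It stood at 324, 199 and 280 CPM in GFPpos replicates 1, 2 and 3, and at 302, 1152 and 1469 CPM in GFPneg replicates 1, 2 and 3. The pair of replicate 1 was level on this scale, while replicates 2 and 3 were far higher in GFPneg cells. The GFPneg value of replicate 1 rests on 92 counts and on its TMM factor (0.501). With scaling to library size only it would be lower. The log2 fold change was -1.87 (SE 0.50, adjusted p = 0.396) with 6 libraries and -2.27 (SE 0.29, adjusted p = 0.00378) without GFPneg replicate 1. Relative to the summed basal markers, Postn was at 4.35%, 3.15% and 4.51% in GFPpos and 3.68%, 8.91% and 13.3% in GFPneg libraries.

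Mmp2 encodes gelatinase A, a secreted metalloproteinase that cleaves denatured and basement membrane collagen (chromosome 8, 92827291 to 92853420). It was at 45.2, 39.8 and 40.3 CPM in GFPpos replicates 1, 2 and 3 and at 23.0, 252 and 281 CPM in GFPneg replicates 1, 2 and 3. The GFPpos libraries were nearly equal, the first GFPneg library (7 counts) was below them and the other GFPneg libraries were above, 6.38-fold on average. The log2 fold change was -2.18 (SE 0.63, adjusted p = 0.493), and -2.66 (SE 0.26, adjusted p = 0.00116) without GFPneg replicate 1.

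Bgn and Fmod encode the proteoglycans biglycan and fibromodulin, which bind collagen fibrils. Bgn (chromosome X, 73483602 to 73495933) was at 170, 121 and 123 CPM in GFPpos and at 115, 486 and 439 CPM in GFPneg replicates 1, 2 and 3. Fmod (chromosome 1, 134037254 to 134048277) was at 19.1, 43.2 and 34.6 CPM in GFPpos and at 0, 183 and 112 CPM in GFPneg replicates 1, 2 and 3. In both genes the GFPneg libraries of replicates 2 and 3 were above every GFPpos library and that of replicate 1 was below. Without it the log2 fold change was -1.73 (SE 0.27, adjusted p = 0.0104) for Bgn and -2.17 (SE 0.37, adjusted p = 0.0189) for Fmod, and with it -1.34 (SE 0.49, adjusted p = 0.733) and -1.66 (SE 0.83, adjusted p = 1.00).

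Col12a1 encodes the chain of type XII collagen, which lies on the surface of type I fibrils (chromosome 9, 79598991 to 79718831). It was at 121, 104 and 121 CPM in GFPpos and at 197, 261 and 398 CPM in GFPneg replicates 1, 2 and 3, and the groups did not overlap on this scale. GFPneg replicate 1 held 60 counts of Col12a1, and its value depends on its TMM factor (0.501). Scaled to library size only (1 count there worth 1.64 CPM), it fell below the GFPpos libraries. The log2 fold change was -1.32 (SE 0.41, adjusted p = 0.614) with 6 libraries and -1.49 (SE 0.27, adjusted p = 0.0283) without GFPneg replicate 1. Col5a1, Col5a2 and Col12a1 were the 3 of 34 matrix genes whose GFPpos libraries were all below all GFPneg libraries, against 3.63% of all genes tested, and 0 were all above, against 9.53%. Without GFPneg replicate 1 this held for 14 of 34, against 13.9% of all genes. With all libraries scaled to library size only, Col5a1 and Col12a1 overlapped between groups and Col5a2 did not.

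**Figure D2:**
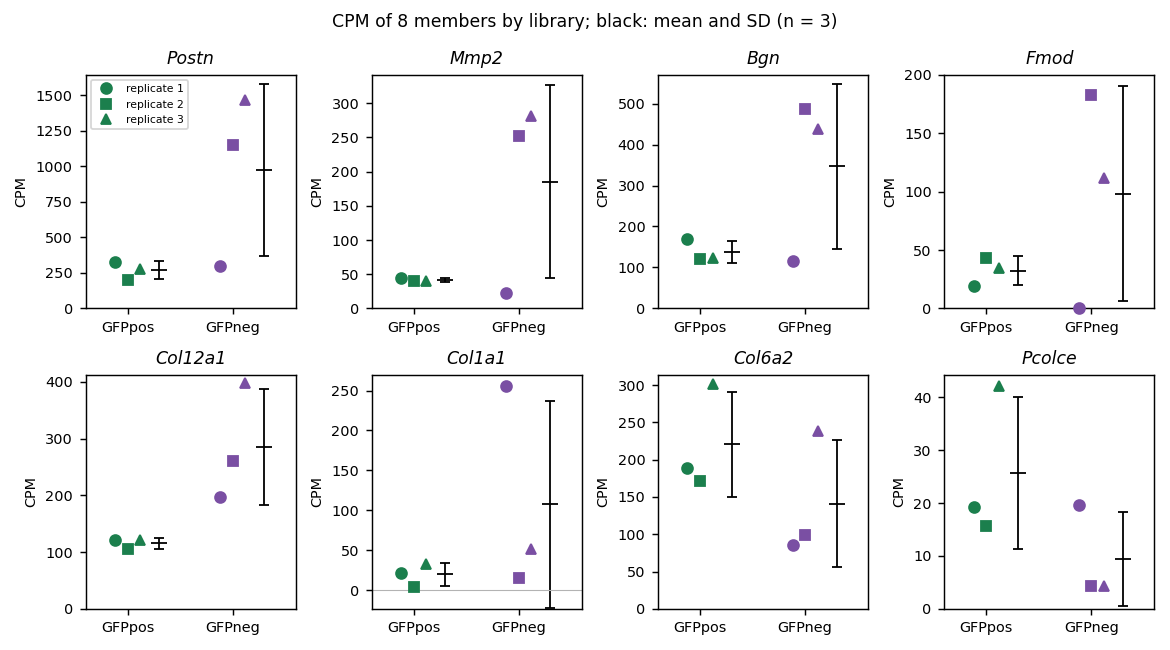
CPM (y axis, linear) of 8 matrix genes in the GFPpos and GFPneg libraries. Symbols mark replicates 1 (circle), 2 (square) and 3 (triangle), and black bars the mean and SD of 3 libraries. The GFPneg circle lies with the GFPpos points for Postn (302 CPM), Mmp2 (23.0) and Bgn (115), and far above all others for Col1a1 (256).

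The sequences before the start sites of Postn, Bgn and Fmod are shown because these genes fell without GFPneg replicate 1. That of Pcolce is shown because its fold change was in the other direction, though it did not pass in that fit (edgeR, adjusted p = 0.106). Of the 37 genes, 25 matched an entry among 32851 promoters (RefSeq, GRCm38.p6, the assembly of mm10), and Mmp2 and Col12a1 did not. Each sequence holds the 250 bases before the RefSeq start, 5′ to 3′ on the gene's strand. Capitals mark the TATA box TATAAA, the CCAAT box CCAAT, the GC box GGGCGG and TGGGAA, the core motif of RBPJ, the protein through which the Notch intracellular domain reaches DNA. Both strands were searched, so that a reverse match appears as the reverse complement, and overlapping matches run together. The regions are chr3:54360857-54361106 (plus strand) for Postn, chrX:73483351-73483600 (plus) for Bgn, chr1:134037004-134037253 (plus) for Fmod and chr5:137611405-137611654 (minus) for Pcolce. The Pcolce region lies within the GENCODE span of that gene (137605103 to 137613784).
Postn: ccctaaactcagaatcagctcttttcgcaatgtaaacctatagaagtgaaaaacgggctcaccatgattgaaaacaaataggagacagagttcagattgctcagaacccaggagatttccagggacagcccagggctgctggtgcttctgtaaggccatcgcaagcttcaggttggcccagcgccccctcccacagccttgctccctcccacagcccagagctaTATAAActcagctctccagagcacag
Bgn: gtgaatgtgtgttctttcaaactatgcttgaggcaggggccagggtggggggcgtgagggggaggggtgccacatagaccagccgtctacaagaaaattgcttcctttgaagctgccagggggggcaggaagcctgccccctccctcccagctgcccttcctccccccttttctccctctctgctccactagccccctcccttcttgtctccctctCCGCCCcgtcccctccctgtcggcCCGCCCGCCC
Fmod: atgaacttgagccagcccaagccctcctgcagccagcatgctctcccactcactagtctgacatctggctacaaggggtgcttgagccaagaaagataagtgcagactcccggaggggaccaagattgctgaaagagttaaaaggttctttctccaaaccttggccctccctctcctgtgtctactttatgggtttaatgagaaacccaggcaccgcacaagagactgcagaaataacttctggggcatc
Pcolce: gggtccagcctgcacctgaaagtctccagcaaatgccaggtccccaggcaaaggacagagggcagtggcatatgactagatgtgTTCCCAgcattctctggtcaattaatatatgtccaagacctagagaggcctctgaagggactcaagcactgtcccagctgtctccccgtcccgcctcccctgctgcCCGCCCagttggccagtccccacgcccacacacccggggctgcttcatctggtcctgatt
Postn had a TATA box 26 bases before the start. For genes with more than 1 entry, only entries with TATAAA were printed. The printed Postn sequence may therefore have been chosen for this motif, and it is not compared with other promoters. Of all promoters of this length, 12.4% held a TATA box. Bgn had 3 GC boxes, of which a pair overlaps, and Pcolce had 1, against 32.7% of all promoters with at least 1. The RBPJ core was found in the Pcolce sequence, 166 bases before the start, and in those of Dpt, Timp1, Tnc and Vcan, 5 of the 25 genes, against 21.6% of all promoters. Over the 25 genes, a TATA box was found in 7 and a GC box in 14, and a CCAAT box in 9, against 33.8% of all promoters. A gene was counted if any of its entries held the motif, while the percentages are over single entries. Genes with several entries thus had more chances of a match, and the counts and percentages are not like for like. Fmod held none of the 4 motifs. A match describes letters and is not a binding site.

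Fibrillar collagens were lower in GFPpos cells by fold change without passing the adjusted test in the main fit. Type I and type III collagen (Col1a1, Col1a2 and Col3a1) build the thick fibrils of the stroma, and type V collagen (Col5a1, Col5a2 and Col5a3) starts them. The fold changes of all 6 were negative (median -1.63 on the log2 scale), and 4 had an unadjusted p below 0.05. Of the 6, 5 were lower in GFPpos cells in all 3 pairs, the exception being Col5a3, and 8 of the 34 matrix genes were, against 8.07% of all genes tested. None passed the adjusted threshold in the main edgeR fit (6 libraries, filterByExpr) or without GFPneg replicate 1. In the latter, 3 of the 6 had an unadjusted p below 0.05. Col1a1 passed in edgeR with 6 libraries and no low count filter (log2 fold change -2.32, adjusted p = 0.0169), and without replicate 3. Col5a1 and Col5a2 passed with the replicate block without replicate 1.

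Col5a1 (chromosome 2) was at 40.4, 45.8 and 53.4 CPM in GFPpos and at 118, 77.6 and 173 CPM in GFPneg replicates 1, 2 and 3. Col5a2 was at 54.5, 64.7 and 26.4 CPM in GFPpos and at 318, 128 and 79.9 CPM in GFPneg replicates 1, 2 and 3. Neither gene overlapped between groups on this scale, though Col5a1 did with scaling to library size only. The log2 fold change was -1.40 (SE 0.47, adjusted p = 0.667) for Col5a1 and -1.82 (SE 0.56, adjusted p = 0.587) for Col5a2, and -1.41 and -1.09 without GFPneg replicate 1.

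Col1a1 was at 22.2, 4.44 and 33.2 CPM in GFPpos and at 256, 15.3 and 51.7 CPM in GFPneg replicates 1, 2 and 3. The high value came from 78 counts in GFPneg replicate 1, and the other libraries overlapped. Its log2 fold change was -2.35 (SE 0.89, adjusted p = 0.773), and -0.72 (SE 0.70, adjusted p = 0.896) without that library. Col1a2, whose protein joins that of Col1a1 in the type I triple helix, was at 2.27, 5.99 and 28.8 CPM in GFPpos and at 23.0, 33.8 and 44.3 CPM in GFPneg replicates 1, 2 and 3. Both chains were lower in GFPpos cells of every pair, by the smallest ratio in replicate 3. Per kilobase, the ratio of Col1a1 to Col1a2 was 18.6 (GFPpos) and 21.1 (GFPneg) in the first pool and between 0.856 and 2.21 elsewhere. The ratios of the first pool rest on 25 (GFPpos) and 7 (GFPneg) counts of Col1a2.

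Col3a1 was at 13.9, 8.48 and 35.7 CPM in GFPpos and at 95.1, 21.6 and 88.3 CPM in GFPneg replicates 1, 2 and 3 (log2 fold change -1.79, SE 0.72, adjusted p = 0.839). The pairs all moved down, while GFPpos replicate 3 was above GFPneg replicate 2. Col3a1 and Col5a2 are neighbours on chromosome 1, with 24614 bases between them, and both were lower in all 3 pairs. Col5a3 ranged from 5.65 to 22.0 CPM and its groups overlapped.

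The other collagens split by type. Col14a1 and Col16a1 encode fibril-associated collagens and were the most abundant collagen genes of the set. Col16a1 was at 665, 684 and 362 CPM in GFPpos and at 675, 941 and 1089 CPM in GFPneg replicates 1, 2 and 3 (log2 fold change -0.66, SE 0.39, adjusted p = 1.00). Col14a1 was at 380, 436 and 220 CPM in GFPpos and at 275, 769 and 825 CPM in GFPneg replicates 1, 2 and 3 (log2 fold change -0.86, SE 0.45, adjusted p = 1.00). For both, GFPneg replicates 2 and 3 were above every GFPpos library, and GFPneg replicate 1 was within the GFPpos range. Col8a1, a short-chain collagen of vessels, ranged from 2.60 to 5.45 CPM in GFPpos and from 3.28 to 15.5 CPM in GFPneg libraries.

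Type VI collagen, which forms beaded filaments around cells, had no common direction. Col6a2 was at 189, 172 and 302 CPM in GFPpos and at 85.2, 99.5 and 239 CPM in GFPneg replicates 1, 2 and 3. It was higher in GFPpos cells in each pair, and the groups overlapped (log2 fold change 0.63, SE 0.47, adjusted p = 1.00). By value 2 of 34 matrix genes were higher in each pair (the other being Aspn), against 21.5% of all genes. Aspn had 5 counts in GFPpos replicate 1 and 0 in GFPneg replicate 1, which allowed up to 9.84 CPM. Its direction in that pair is therefore not settled. Col6a1 was at 242, 199 and 332 CPM in GFPpos and at 328, 150 and 448 CPM in GFPneg replicates 1, 2 and 3, lower in GFPpos cells in replicates 1 and 3 and higher in replicate 2. Col6a1 and Col6a2 lie on chromosome 10 with 85161 bases between them.

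Col6a3, the third chain, was the most uneven. It was at 4.26, 27.9 and 52.4 CPM in GFPpos and at 59.0, 7.39 and 22.5 CPM in GFPneg replicates 1, 2 and 3. It was lower in GFPpos cells in replicate 1 and higher in replicates 2 and 3. Its log2 fold change was 0.064 (SE 0.90) with 6 libraries and -0.031 with RLE size factors, so that it has no settled direction. Per kilobase, Col6a1 exceeded Col6a3 in every library, from 15.2 times in GFPneg replicate 1 to 155 times in GFPpos replicate 1.

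The small leucine-rich proteoglycans other than Bgn and Fmod were scarce. Dcn, which encodes decorin, was at 3.26, 1.63 and 0 CPM in GFPpos and at 0, 60.9 and 7.84 CPM in GFPneg replicates 1, 2 and 3. Nearly all of its reads (1186 counts) were in GFPneg replicate 2, and the 0 in GFPneg replicate 1 allowed up to 9.84 CPM. The log2 fold change was -3.93 (SE 1.44, adjusted p = 0.738), and ranged from -5.45 to -1.54 when 1 library or pair was left out. Its neighbour Lum, on the same chromosome with 46984 bases between them, had no counts.

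Aspn and Ogn, which encode asporin and osteoglycin, are neighbours on chromosome 13. Aspn was above 20 CPM in replicate 3 of both groups (23.5 CPM in GFPpos and 20.1 CPM in GFPneg) and was at 0 to 4.44 CPM in the other libraries. Ogn was at 0 to 3.74 CPM. Both genes lie within the span of Cenpp on the other strand, and the strand setting of the counting is not given in the sources used here.

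Among the matrix glycoproteins, fibronectin (Fn1) links collagen to integrins. It was at 141, 220 and 292 CPM in GFPpos and at 138, 379 and 533 CPM in GFPneg replicates 1, 2 and 3. The pair of replicate 1 was level on this scale and the others were higher in GFPneg cells (log2 fold change -0.70, SE 0.48, adjusted p = 1.00). The level pair depends on the TMM factor of GFPneg replicate 1 (0.501). Vcan, which encodes the large proteoglycan versican, was at 180, 231 and 118 CPM in GFPpos and at 0, 439 and 216 CPM in GFPneg replicates 1, 2 and 3. The 0 in GFPneg replicate 1 stood apart from every other library, and the fold change was -0.35 (SE 0.83) with it and -0.88 (SE 0.36) without it on the log2 scale.

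Tnc, which encodes tenascin-C, was at 47.2, 38.4 and 78.9 CPM in GFPpos and at 39.3, 39.4 and 44.1 CPM in GFPneg replicates 1, 2 and 3. The GFPneg libraries were nearly equal and lay within the GFPpos range. Thbs2, which encodes the antiangiogenic protein thrombospondin-2, was at 1.63 to 10.8 CPM in GFPpos and 0 to 14.9 CPM in GFPneg libraries.

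Collagen processing and cross-linking genes were low. Pcolce encodes an enhancer of the proteinase that removes the carboxyl propeptide of procollagen (chromosome 5, 137605103 to 137613784). It was at 19.3, 15.6 and 42.2 CPM in GFPpos and at 19.7, 4.31 and 4.28 CPM in GFPneg replicates 1, 2 and 3. The GFPneg value of replicate 1 (6 counts) was within the GFPpos range, and the others were below it. Pcolce was the 1 matrix gene that was higher in every GFPpos library than in GFPneg replicates 2 and 3, against 11.8% of all genes. The log2 fold change was 1.80 (SE 0.90, adjusted p = 1.00), and 2.60 (SE 0.62, adjusted p = 0.106) without GFPneg replicate 1. Pcolce overlaps Fbxo24 on the same strand, and reads shared by both would have been counted as ambiguous or for either.

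The lysyl oxidase genes Lox, Loxl1 and Loxl2 had 0 counts in GFPneg replicate 1. Lox was at 3.99, 3.03 and 11.7 CPM in GFPpos and at 13.9 and 11.0 CPM in GFPneg replicates 2 and 3. Loxl1 was at 3.17, 5.91 and 20.6 CPM in GFPpos and at 7.49 and 16.8 CPM in GFPneg replicates 2 and 3 (log2 fold change 0.096, SE 1.04, adjusted p = 1.00, and -0.27 without GFPneg replicate 1). Loxl2 ranged from 2.44 to 9.86 CPM in these 5 libraries. The groups overlapped for all 3 genes.

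Apart from Mmp2, no proteinase or inhibitor gene was called in any of these fits. Mmp14, a membrane-bound proteinase that activates the Mmp2 protein, was at 275, 327 and 187 CPM in GFPpos and at 492, 225 and 258 CPM in GFPneg replicates 1, 2 and 3. Its log2 fold change was -0.29 (SE 0.42, adjusted p = 1.00), 0.14 (SE 0.29) without GFPneg replicate 1, and 0.14 with scaling to library size only. Timp2, an inhibitor that also takes part in this activation, was at 117, 148 and 201 CPM in GFPpos and at 252, 201 and 253 CPM in GFPneg replicates 1, 2 and 3. It was lower in GFPpos cells in each pair (log2 fold change -0.60, SE 0.40, adjusted p = 1.00). Timp3, an inhibitor bound to the matrix, was at 479, 387 and 380 CPM in GFPpos and at 125, 598 and 573 CPM in GFPneg replicates 1, 2 and 3. Its GFPneg replicate 1 value was the lowest of the 6 and the other GFPneg values were the highest. With 6 libraries the log2 fold change was -0.069 (SE 0.49, adjusted p = 1.00), and -0.48 (SE 0.25, adjusted p = 0.659) without GFPneg replicate 1. Timp1 was at 2.54 to 5.80 CPM in GFPpos and 3.70 to 19.7 CPM in GFPneg libraries. Timp1 and Timp3 overlap Syn1 and Syn3 on the other strand.

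The fibroblast surface genes were low. Pdgfra, a growth factor receptor of fibroblasts, was at 5.80, 19.1 and 2.23 CPM in GFPpos and at 13.1, 14.8 and 20.2 CPM in GFPneg replicates 1, 2 and 3, and the groups overlapped (log2 fold change -0.85, SE 0.91, adjusted p = 1.00). Thy1, which encodes the surface protein CD90, had values below 5 CPM in all 6 libraries (log2 fold change -0.59, SE 1.55, adjusted p = 1.00). Lum, Ogn, Dpt and Mmp3 were the other matrix genes with values below 5 CPM throughout. Like Thy1 they had 0 counts in GFPneg replicate 1, which allowed up to 9.84 CPM there.

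**Figure D3:**
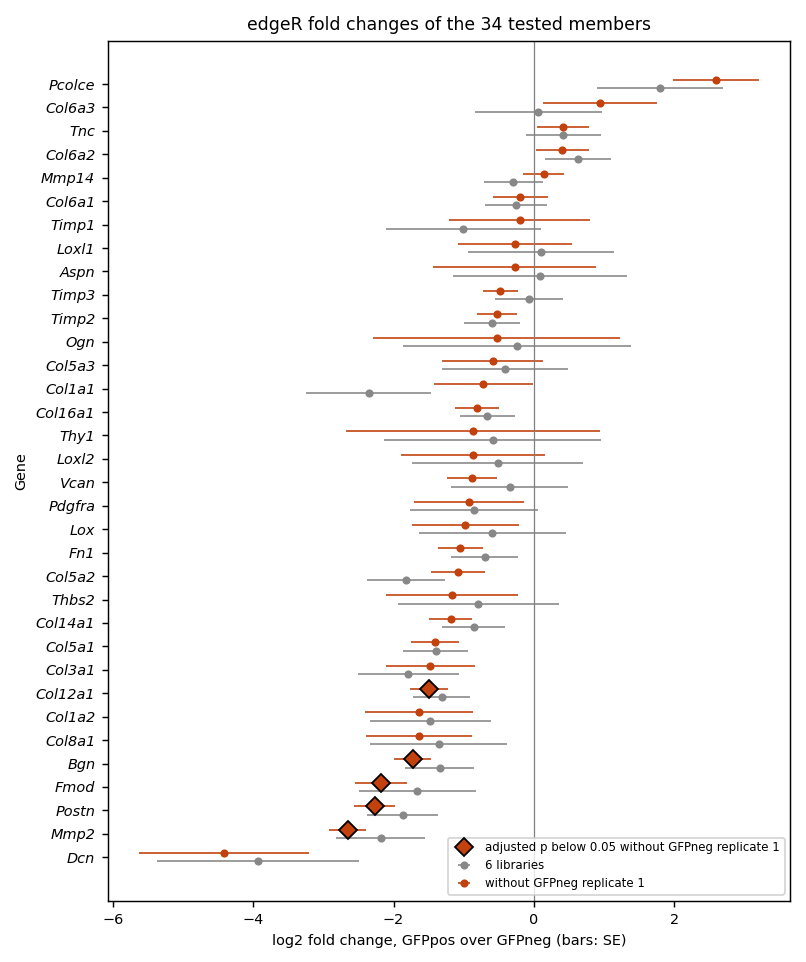
edgeR log2 fold changes (GFPpos over GFPneg, x axis; bars are the SE) of the 34 tested matrix genes with 6 libraries (grey) and without GFPneg replicate 1 (orange). Diamonds mark the 5 genes with an adjusted p below 0.05 in the second fit, which all lie at -1.49 or lower, and Pcolce is the farthest to the right (1.80 and 2.60).

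The pairs did not move alike. The median log2 ratio of CPM + 1 over the 34 genes was 0.07, -0.80 and -0.64 in replicates 1, 2 and 3, while over all genes tested it was 1.34, -0.03 and 0.05. The matrix genes were thus below the median gene in each pair, and in replicate 1 the median of all genes was itself shifted up. In replicate 1 the fibrillar collagens had a median of -2.61 and the processing genes of 2.13, a gap that includes the 3 lysyl oxidase genes at 0 counts in GFPneg cells. In replicates 2 and 3 these medians were -1.12 and -0.97 for the fibrillar collagens and -0.69 and 0.18 for the processing genes. Of the 34, 12 were lower in GFPpos cells in replicates 2 and 3 but not in replicate 1, among them Postn, Mmp2, Bgn, Fmod, Dcn and Col14a1. The share of all genes with this pattern was not counted. In replicate 1 alone, 15 of the 34 were lower, against 3405 of the 13873 genes tested. Dcn, Thbs2 and Loxl2 had 0 counts in GFPneg replicate 1, which allowed up to 9.84 CPM. Their GFPpos values there were below that limit, so that their direction in replicate 1 is not settled.

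**Figure D4:**
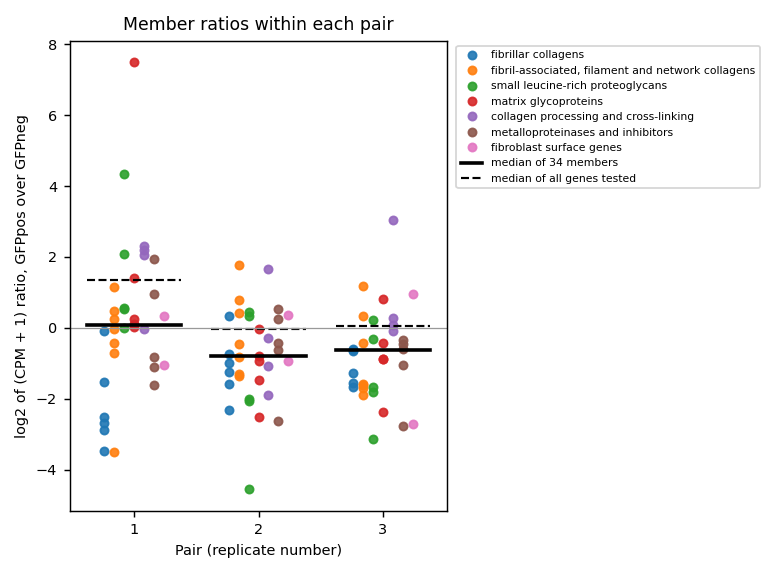
Log2 ratio of CPM + 1, GFPpos over GFPneg (y axis), for the 34 tested matrix genes in the pairs of replicates 1, 2 and 3 (x axis), coloured by role. Solid lines are the median of the 34 genes (0.07, -0.80 and -0.64) and dashed lines that of all genes tested (1.34, -0.03 and 0.05).

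With the replicate block and without replicate 1, a fit of only 2 pairs, 9 of 34 were called lower (1.41% of all genes) and 2 higher (2.52% of all genes). The 9 were Mmp2, Postn, Bgn, Fmod, Col12a1, Col14a1, Col5a1, Col5a2 and Dcn, and the 2 were Pcolce (log2 fold change 2.59, adjusted p = 0.00380) and Col6a3 (1.58, adjusted p = 0.0354). With so few pairs, these p-values draw mainly on the dispersion estimated over all genes.

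Genes of collagen folding and processing outside the set were also examined. Of 25 tested, 0 passed in either direction with 6 libraries and 0 did at an unadjusted p below 0.05, and the median log2 fold change was 0.14. Adamts2, the proteinase that removes the amino propeptide of fibrillar procollagens, was at 78.0, 43.6 and 70.1 CPM in GFPpos and at 26.2, 91.2 and 193 CPM in GFPneg replicates 1, 2 and 3. It was the 1 gene of this list called by the block without replicate 1 (log2 fold change -1.24, adjusted p = 0.00975). Crtap, part of the prolyl 3-hydroxylation complex, had a GFPpos mean of 45.9 ± 10.2 CPM and a GFPneg mean of 19.7 ± 17.3 CPM, with 0 counts in GFPneg replicate 1. P4ha2, a collagen prolyl 4-hydroxylase subunit, had means of 3.49 ± 1.87 and 8.73 ± 2.10 CPM (SD, n = 3). Neither passed the threshold.

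Other fibroblast genes were split in direction. Of 17 tested, 9 had negative and 8 positive fold changes (median -0.24), and 0 passed with 6 libraries, with 1 lower and 2 higher at an unadjusted p below 0.05. Cxcl12, a chemokine gene of stromal cells, was at 77.5, 88.5 and 41.4 CPM in GFPpos and at 45.9, 229 and 216 CPM in GFPneg replicates 1, 2 and 3, and fell without GFPneg replicate 1 (log2 fold change -1.67, adjusted p = 0.0475). Meox1, a homeobox gene named here after its values were seen, rose in that fit (4.06, adjusted p = 0.00394). It was at 48.4, 48.9 and 101 CPM in GFPpos and at 65.6, 5.18 and 2.73 CPM in GFPneg replicates 1, 2 and 3. Cd34, a sialomucin of fibroblasts and endothelium, had means of 107 ± 76.6 (GFPpos) and 43.7 ± 2.37 CPM (GFPneg) and did not pass. Twist1, which encodes a mesenchymal transcription factor, was at 21.2, 0.700 and 6.59 CPM in GFPpos and at 0, 1.28 and 0.0911 CPM in GFPneg replicates 1, 2 and 3.

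Of 16 matrix receptor genes tested, 0 passed with 6 libraries or without GFPneg replicate 1, with 2 lower and 2 higher at an unadjusted p below 0.05 in the former. Sdc4, which encodes the fibronectin receptor syndecan-4, had a GFPpos mean of 352 ± 37.4 CPM and a GFPneg mean of 701 ± 201 CPM, and its groups did not overlap (log2 fold change -0.99, SE 0.38, adjusted p = 0.792). Ddr2, a receptor for fibrillar collagen, had means of 22.6 ± 10.9 and 5.79 ± 1.74 CPM (log2 fold change 2.01, SE 0.85, adjusted p = 0.843). Itga2, a collagen receptor subunit, was at 29.8 to 48.4 CPM in 5 libraries and at 410 CPM in GFPneg replicate 1.

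Markers of other cell types also differed between libraries, and their part in the matrix values was not tested. Of 6 pericyte markers tested, 5 had positive fold changes, and their sum was 281 to 804 CPM in GFPpos and 59.0 to 225 CPM in GFPneg libraries. Endothelial markers (7 of 10 positive) summed to 1106 to 3249 CPM in GFPpos and 731 to 1912 CPM in GFPneg libraries. Of 10 luminal epithelial markers 8 were positive, with sums of 505 to 904 and 236 to 516 CPM. Of 8 basal markers 7 were negative. Their median log2 fold change was -0.74 with 6 libraries and -0.87 without GFPneg replicate 1, against -0.68 and -0.87 for the matrix genes. In the latter fit 1 of the 8 was called lower (Cnn1, log2 fold change -1.57, edgeR adjusted p = 0.0158). Immune cell markers summed to 5.62 to 20.6 CPM in GFPpos and 7.70 to 32.8 CPM in GFPneg libraries, with Lyz2, Csf1r and Adgre1 at 0 in at least 5. Adipocyte markers summed to 42.6 to 160 and 88.5 to 149 CPM, with Lep and Cfd at 0 in at least 5 libraries, and skeletal muscle markers to at most 6.30 CPM.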

How the data were processed

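For every library the authors deposited a table of whole-number read counts by gene symbol, with 51826 symbols and 5 summary rows that were left out here. The submitters' processing notes name FastQC, cutadapt, TopHat2, HTSeq and mm10. The versions of these tools, the counting mode, the strand setting and the gene annotation were not given in the sources used here, and overlapping and antisense genes are therefore uncertain. Positions and exon lengths were taken from GENCODE annotation of the same assembly.

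The test was the quasi-likelihood F test of edgeR 4.0.16 (R 4.3.3), with TMM factors (0.501 in GFPneg replicate 1, otherwise 1.05 to 1.22), filterByExpr and a model of group alone. Benjamini-Hochberg adjustment ran over all 13873 genes kept, or 15274 without GFPneg replicate 1, and the threshold was 0.05. The SE is the unshrunk log2 fold change divided by the square root of F. Other settings were the replicate block, DESeq2 1.42.0, limma-voom (limma 3.58.1), other scaling, other filters, and leaving out libraries or pairs. The fitting code was tested on simulated data.

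Both fractions of a replicate were sorted from 1 pool of mice, per the series' design text, which pairs the samples. Deviations from the group means correlated at -0.036, 0.122 and -0.0013 in replicates 1, 2 and 3. P-values measure the spread between pools. The genes and lists were chosen with earlier results of these data known. All 37 genes were named, with full statistics for those called with 6 libraries, with the block or without GFPneg replicate 1, and for the 2 most abundant of each role. Of each related list, the 3 genes with the smallest p were named. The values of 1 list of cell type markers are not reported here.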

Additional observations from a re-analysis of the deposited data

How the results depend on the processing

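Over 19 other settings the median log2 fold change of the tested matrix genes stayed negative, from -0.95 (limma-voom) to -0.49, and lay 0.65 to 1.15 below the median of all genes. Without 1 library or pair it ranged from -0.92 to -0.49. Scaling to library size only moved the median of all genes from 0.15 to 0.31 and that of the matrix genes to -0.52, and the gap between them stayed at -0.83. The number called lower was 0 in the main fit, with DESeq2 and with other scaling. It was 4 with limma-voom, against 24 of 13873 genes. With no low count filter it was 4 (Col1a1, Dcn, Postn and Mmp2), against 236 of 24729 genes. Without 1 library or pair it was 0 to 5, with 5 without GFPneg replicate 1. It was 3 without both libraries of replicate 1, against 9 of 15346 genes. Col1a1 alone was called without replicate 3, against 68 of 14075 genes. The number called higher was 0 in each of these. The replicate block without replicate 1 called 9 lower and 2 higher, and the replicate block with 3 pairs called 0 in either direction and so changed no call. The cause was not tested. Of 34 genes, 21 kept their direction in each of the 19 settings that tested them, among them the 5 called without GFPneg replicate 1 and every fibrillar collagen other than Col5a3. The other 13 reversed in at least 1. Without 1 library or pair their log2 fold changes ranged from -0.82 to 0.60 (Col5a3), -0.59 to 0.13 (Col6a1), -0.95 to 1.46 (Col6a3), -0.78 to 0.50 (Ogn), -1.82 to 1.93 (Aspn), -2.17 to 0.015 (Thbs2), -0.90 to 0.62 (Vcan), -1.40 to 0.24 (Lox), -0.99 to 0.96 (Loxl1), -0.92 to 0.86 (Loxl2), -0.69 to 0.14 (Mmp14), -0.59 to 0.29 (Timp3) and -1.46 to 1.91 (Thy1). Reversed values elsewhere were 0.060 (limma-voom), 0.066 (library size only) and 0.010 (replicate block without replicate 1) for Col6a1, -0.092 (DESeq2) and -0.031 (RLE size factors) for Col6a3, 0.11 (replicate block) and 0.13 (replicate block without replicate 1) for Ogn, -0.93 for Aspn and -0.30 for Loxl1 (limma-voom), 0.38 (replicate block) and 0.59 (DESeq2 with replicate block) for Vcan, 0.019 (limma-voom), 0.14 (library size only) and 0.056 (replicate block without replicate 1) for Mmp14, 0.17 (replicate block) and 0.15 (DESeq2 with replicate block) for Timp3, and 0.49 (replicate block) and 0.39 (replicate block without replicate 1) for Thy1. None of these 13 was called in a reversed setting. Depth limits GFPneg replicate 1 most, where 1 count equals 3.28 CPM.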
